A study of Mus musculus with 12 samples.

Results

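The visual cycle genes described here are 7 retinoid dehydrogenases (Rdh8, Rdh12, Rdh11, Rdh14, Rdh10, Rdh5 and Dhrs3), 2 retinoid binding proteins (Rlbp1 and Rbp3) and the retinal G protein-coupled receptor gene Rgr. They were chosen by name, 10 of the 55866 gene symbols in the scaled count table and 10 of the 55372 in the TPM table, and all 10 were found in both. The series measured messenger RNA in mouse retina at 2 months of age, in 12 libraries of 4 groups with 3 libraries each. Control mice were RiboTag;i75-Rod-Cre littermates and knockout mice (Abca4Ko) were RiboTag;Abca4-/-;i75-Rod-Cre, so mice of both genotypes carried the RiboTag allele and the Cre. RiboTag is a ribosomal protein Rpl22 allele that gains a tag after Cre recombination, here under a rhodopsin promoter, so that ribosomes of rods can be pulled down. From each genotype, RNA was taken from the retinal lysate (retina) and from the pulled-down ribosomes (rod TRAP, translating ribosome affinity purification), with ribosomes held in place by cycloheximide perfusion. The labels do not say whether the libraries of a group came from separate animals, so the p-values measure the spread between these libraries, which may be technical. In bulk retina, fewer cells of a type and less RNA per cell cannot be told apart.

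Vision depends on the return of bleached chromophore to its 11-cis form. After light turns 11-cis-retinal into all-trans-retinal, Abca4, a transporter of the disc membrane, helps move the retinal out of the disc, and the dehydrogenases Rdh8 of the outer segment and Rdh12 of the inner segment reduce it to all-trans-retinol. The retinol crosses the interphotoreceptor matrix with Rbp3 (IRBP), which photoreceptors secrete. In the retinal pigment epithelium (RPE), Lrat and Rpe65 esterify and isomerise it, Rdh5 oxidises 11-cis-retinol, and Rlbp1 (CRALBP) binds the 11-cis retinoids. Müller glia also hold Rlbp1, and Rgr, a light-driven retinoid isomerase, is known from both the RPE and Müller glia. Rdh11 and Rdh14 act on both cis and trans retinoids, Dhrs3 (retSDR1) reduces all-trans-retinal and was first described in cones, and Rdh10 oxidises retinol, a step toward retinoic acid.

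The targeted gene was checked first. Abca4 had 195, 365 and 13156 scaled counts in the 3 Abca4Ko rod TRAP libraries, against 53193 to 61017 in control rod TRAP. In retina it had 153, 366 and 8124, against 37619 to 38929. The libraries labelled Abca4Ko replicate 3 thus held 23.5% and 21.3% of the control mean where the other knockout libraries held 0.349% to 0.958%, and results are given with and without them where they differ. Scaled counts are read counts that the authors multiplied by 1 factor per library to a common total, between 17096515 and 17097707 in rod TRAP and between 17860761 and 17862326 in retina. The number of reads behind them could be recovered, from the spacing of low values, for 8 of the 12 libraries and ran from 14800000 to 23200000. Marker genes were checked in the control mice: rod TRAP was above retina for all 14 rod genes (median log2 fold change 1.33), and below retina for 9 of 10 cone genes (median -1.50), 11 of 12 Müller glia genes (median -4.28) and 11 of 12 RPE genes (median -3.44). The RPE genes were uneven between the retina libraries, with a summed TPM of the 12 genes between 98.1 and 755.9. They did not all rank the libraries alike. Abca4Ko retina replicate 1 had the lowest sum but the highest Rpe65, 157 scaled counts, so the sum is no plain measure of the RPE.

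Promoter windows are shown for the 2 members with the highest level and the 2 that fell most in rod TRAP, since the comparison of the fractions turns on them. Each window is the stretch of 250 bases before the start of transcription in RefSeq, on build GRCm38.p6, read 5′ to 3′ along the gene. RefSeq windows were matched for 9 of the 10 members, and none for Rdh10. Capitals mark TAATCC, the core of sites that the photoreceptor factor CRX prefers, or TGCTGA, the core of the site for the rod factor NRL, on either strand (GGATTA and TCAGCA on the other). These letters do not overlap each other in any window shown.
Rbp3, chr14:33953753-33954002, forward strand: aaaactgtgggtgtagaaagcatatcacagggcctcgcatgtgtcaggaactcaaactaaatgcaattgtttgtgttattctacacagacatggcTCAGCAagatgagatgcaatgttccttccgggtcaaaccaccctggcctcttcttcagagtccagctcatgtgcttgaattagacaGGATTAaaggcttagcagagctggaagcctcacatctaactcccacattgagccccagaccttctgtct
Rdh12, chr12:79208663-79208912, forward strand: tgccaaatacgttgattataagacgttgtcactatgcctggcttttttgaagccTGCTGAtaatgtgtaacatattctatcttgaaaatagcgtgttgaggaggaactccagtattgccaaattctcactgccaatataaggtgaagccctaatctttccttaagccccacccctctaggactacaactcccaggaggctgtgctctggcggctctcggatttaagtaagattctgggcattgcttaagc
Rlbp1, chr7:79387028-79387277, reverse strand: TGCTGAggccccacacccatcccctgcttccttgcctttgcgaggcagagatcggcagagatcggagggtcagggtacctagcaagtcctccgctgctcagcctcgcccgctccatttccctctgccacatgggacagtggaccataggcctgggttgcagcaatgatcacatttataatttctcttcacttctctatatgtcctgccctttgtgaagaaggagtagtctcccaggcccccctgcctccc
Rgr, chr14:37049015-37049264, reverse strand: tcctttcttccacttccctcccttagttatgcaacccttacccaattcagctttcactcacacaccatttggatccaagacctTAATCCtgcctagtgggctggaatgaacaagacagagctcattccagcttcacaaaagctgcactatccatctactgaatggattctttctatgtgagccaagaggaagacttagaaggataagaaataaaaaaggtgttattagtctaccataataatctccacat
The Rbp3 window held both motifs, TCAGCA 155 bases and GGATTA 69 bases before the start. The Rdh12 window held TGCTGA 196 bases before the start, the Rlbp1 window held TGCTGA 250 bases before it, at its very edge, and the Rgr window held TAATCC 167 bases before it. Of all 32851 windows of this length, 6.25% held TAATCC, 16.1% held TGCTGA and 0.962% held both. The Rdh14 window also held TGCTGA at its edge, 250 bases before the start, and the windows of Rdh8, Rdh11, Dhrs3 and Rdh5 held neither. The matches were thus split between genes that were higher in rod TRAP (Rbp3, Rdh12, Rdh14) and genes that were lower (Rlbp1, Rgr). A match is a stretch of letters and not a bound site. For Rdh8, Rdh12 and Rgr the start of RefSeq was not found in a GENCODE M21 transcript, so their windows rest on RefSeq alone.

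Levels between genes were compared in TPM, a share of transcripts scaled for length. In control rod TRAP, Rbp3 stood far above the rest with 5990 ± 364 TPM (SD, n = 3), followed by Rdh12 with 1084 ± 22.5 TPM. Dhrs3 had 293 ± 5.82 TPM and Rdh8 had 238 ± 8.35 TPM, so the inner segment enzyme Rdh12 was listed at 4.47 to 4.67 times the TPM of the outer segment enzyme Rdh8 in these libraries. Below them came Rdh11 with 72.5 ± 3.11, Rdh14 with 34.6 ± 1.01, Rdh10 with 8.53 ± 1.17, Rlbp1 with 5.80 ± 0.854, Rdh5 with 3.30 ± 0.557 and Rgr with 1.50 ± 0.781 TPM. No neighbours in this order overlapped in their 3 libraries. In Abca4Ko rod TRAP the order of the means was unchanged, but the ranges of Dhrs3 and Rdh8, of Rdh10 and Rlbp1, and of Rdh5 and Rgr overlapped.

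In control retina the glial and RPE genes took other places. Rbp3 had 3019 ± 114 TPM and Rdh12 626 ± 54.9 TPM, and Rlbp1 came next with 374 ± 124 TPM, above Dhrs3 with 213 ± 15.8 and Rdh8 with 131 ± 10.3 TPM. Rdh11 followed with 42.8 ± 2.76 TPM. The last 4 genes, Rgr with 27.8 ± 10.8, Rdh14 with 23.7 ± 4.68, Rdh5 with 20.7 ± 4.71 and Rdh10 with 18.4 ± 4.99 TPM, overlapped with their neighbours. The first 6 places were the same in Abca4Ko retina, and the last 4 genes there also overlapped with their neighbours, between 25.9 TPM for Rdh14 and 13.0 TPM for Rdh5.

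**Figure D1:**
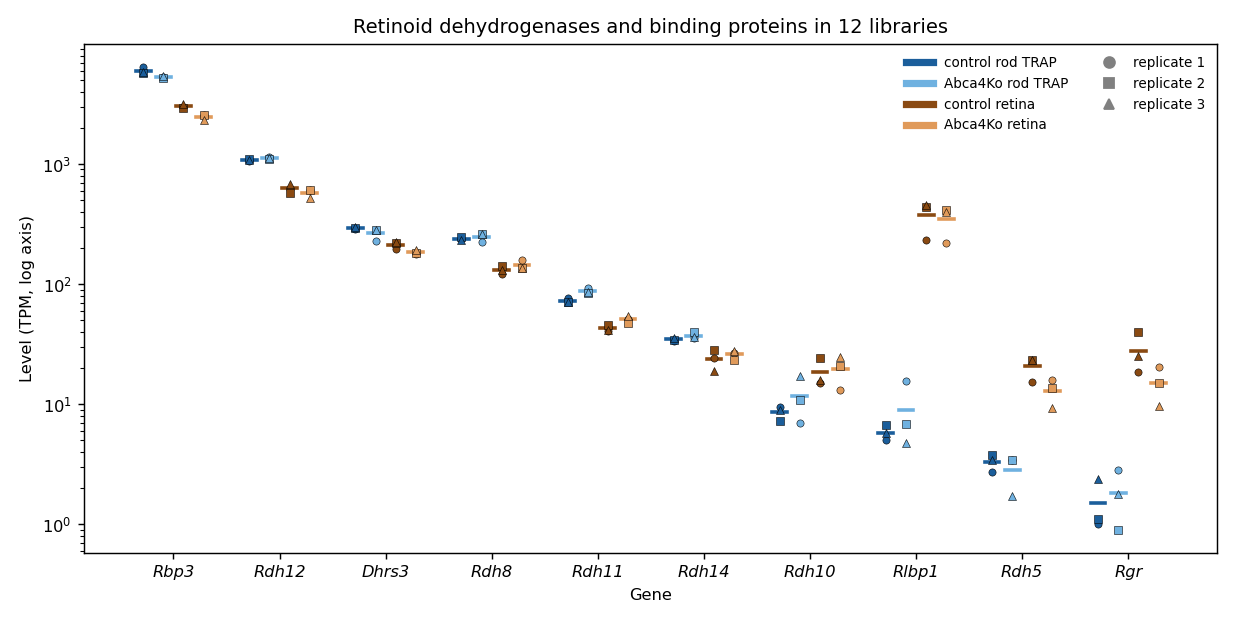
TPM of the 10 genes (log axis) in each of the 12 libraries, with circles, squares and triangles for replicates 1, 2 and 3 and a short line at the mean of each group of 3. Rbp3 lies highest in every group, from 2305 to 6411 TPM, and Rlbp1, Rdh5 and Rgr lie lower in both rod TRAP groups than in both retina groups.

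The first comparison asked which of these messages were carried by rod ribosomes more than by the retina as a whole. In control mice, 6 of the 10 genes were higher in rod TRAP (Rbp3, Rdh8, Rdh11, Rdh12, Rdh14 and Dhrs3) and 4 were lower (Rlbp1, Rgr, Rdh5 and Rdh10), at a limma adjusted p under 0.05. Of the 16286 genes tested, 36.6% were called higher and 38.8% lower, so a call by itself was common, and the sizes carry more. The median log2 fold change of the 10 genes was 0.81, against -0.03 for all genes tested. In Abca4Ko mice the same 6 genes were higher and 3 were lower, with a median of 0.78 against 0.00437 for all genes, where 30.4% of 16036 genes were called higher and 33.7% lower. Log2 fold changes here are on the scale of log2(CPM + 0.5), CPM being scaled counts per 1000000, and understate the change of the lowest genes.

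Rbp3, the matrix retinoid carrier, had 6411, 5776 and 5784 TPM in the control rod TRAP libraries and 2961, 2944.5 and 3150.3 TPM in control retina. In Abca4Ko mice it had 5261, 5235 and 5399 TPM in rod TRAP and 2547, 2548 and 2305 TPM in retina. Every rod TRAP library was above every retina library. The log2 fold change was 1.30 (SE 0.12, limma adjusted p = 5.69e-07) in control and 1.35 (SE 0.24, limma adjusted p = 0.000543) in Abca4Ko, the largest rise among the members in both. These sizes were close to the median of the rod marker genes, 1.33 and 1.31.

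Rdh8, the outer segment all-trans-retinol dehydrogenase, had 235, 248 and 232 TPM in control rod TRAP and 121, 142 and 130.1 TPM in control retina. In Abca4Ko rod TRAP it had 226, 260.1 and 259 TPM, and in Abca4Ko retina 159.8, 137 and 137 TPM. The fractions did not overlap in either genotype. Its log2 fold change was 1.16 (SE 0.11, limma adjusted p = 9.10e-07) in control and 1.00 (SE 0.19, limma adjusted p = 0.000867) in Abca4Ko.

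Rdh12, the inner segment dehydrogenase, had 1062, 1107 and 1082 TPM in control rod TRAP and 619, 576 and 685 TPM in control retina. In Abca4Ko it had 1147, 1105 and 1121 TPM in rod TRAP and 609.9, 605 and 519 TPM in retina. Again every rod TRAP library was higher than every retina library, and the log2 fold change was 1.10 (SE 0.14, limma adjusted p = 8.37e-06) in control and 1.19 (SE 0.21, limma adjusted p = 0.000480) in Abca4Ko. Rdh11 had 70.4 to 76.1 TPM in control rod TRAP and 40.7 to 45.9 TPM in control retina, a log2 fold change of 1.13 (SE 0.11). In Abca4Ko the log2 fold change of Rdh11 was 1.03 (SE 0.18). The photoreceptor enzymes Rdh8 and Rdh12 and the more broadly known Rdh11 had fold changes that lay within each other's 95% intervals, and the differences between them were not tested.

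Rdh14 and Dhrs3 were higher in rod TRAP by less. Rdh14 had 33.7 to 35.7 TPM in control rod TRAP and 18.7 to 28.0 TPM in control retina, with a log2 fold change of 0.86 (SE 0.14). In Abca4Ko it was 0.75 (SE 0.18). Dhrs3 had 288, 291 and 299 TPM in control rod TRAP and 195, 220.5 and 223 TPM in control retina, a log2 fold change of 0.76 (SE 0.12). In Abca4Ko rod TRAP Dhrs3 had 228, 283 and 281 TPM, above the 177, 181 and 194 TPM in Abca4Ko retina, a log2 fold change of 0.81 (SE 0.16). Dhrs3 thus moved in the direction of the 14 rod genes, but by less than the lowest of them, 0.88 in control and 0.97 in Abca4Ko. In control it moved opposite to 9 of the 10 cone genes. The 10 cone genes summed to 2222 to 2529 TPM in control retina and 590.4 to 692 TPM in control rod TRAP. The calls of Rdh14 and Dhrs3 were lost when only the authors' scaling was used, with log2 fold changes of 0.23 and 0.12 in control at a median of all genes of -0.62. Their log2 fold changes in Abca4Ko were then 0.22 and 0.28 at a median of -0.49.

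**Figure D2:**
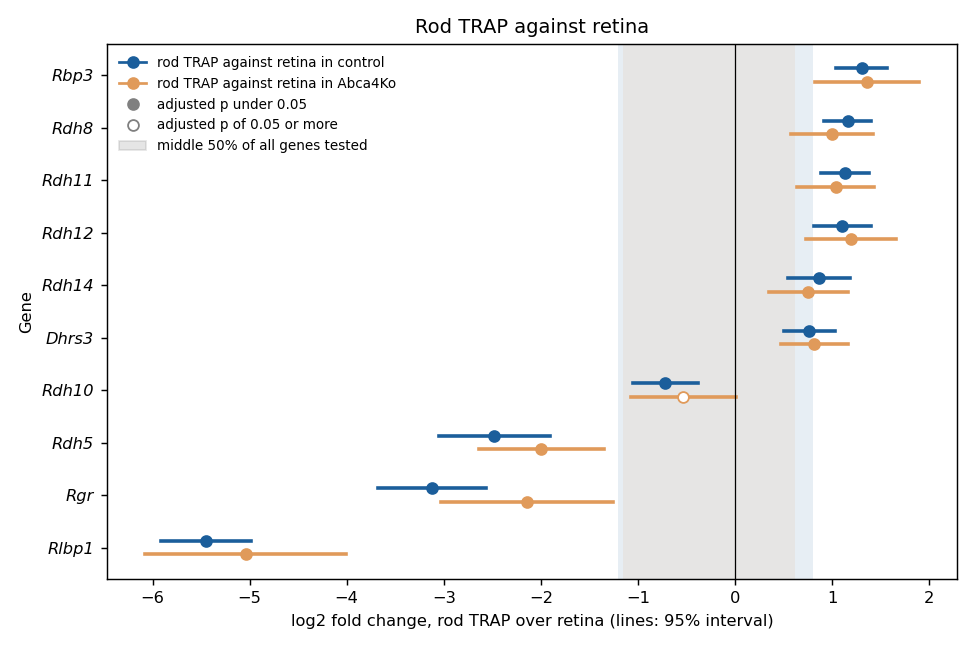
Log2 fold change of rod TRAP over retina for the 10 genes in control (blue) and Abca4Ko (orange), with 95% intervals as lines and filled points where the limma adjusted p was under 0.05. The shaded bands hold the middle of all genes tested in each genotype; 6 genes lie above 0 in both genotypes, and Rlbp1 lies farthest below, at -5.45 and -5.04.

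Among the members that were lower in rod TRAP, Rlbp1, the 11-cis retinoid binding protein of Müller glia and the RPE, was lower by far the most. It had 85, 115 and 101 scaled counts in control rod TRAP and 5038, 8723 and 10022 in control retina. In Abca4Ko it had 305, 113 and 81 in rod TRAP and 5493, 9037 and 8251 in retina. The fractions were far apart, and replicate 1 was the lowest retina library in both genotypes while the highest rod TRAP library was Abca4Ko replicate 1. The log2 fold change was -5.45 (SE 0.21, limma adjusted p = 4.22e-10) in control and -5.04 (SE 0.44, limma adjusted p = 3.08e-05) in Abca4Ko. In mean TPM, 1.55% of the control retina level and 2.61% of the Abca4Ko retina level were seen in rod TRAP. The Abca4Ko value rests on replicate 1, with 7.01% of its retina library, against 1.64% and 1.18% for replicates 2 and 3. The control value was within the range over the 12 Müller glia genes, of which the lowest was Apoe at 1.13%, the median 3.58% and the highest Car2 at 89.1%.

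The level of Rlbp1 went along with the summed level of the Müller glia genes across the retina libraries, but not with every gene listed. Their summed level was 3469, 5313 and 5244 TPM in control retina replicates 1 to 3 and 3088, 5026 and 4865 TPM in Abca4Ko retina, and Rlbp1 came to 6.67% to 8.61% of that sum in all 6. In control retina most of that sum was Apoe and Glul, with means of 2037 and 1505 TPM. There Slc1a3 had 1672, 2810 and 1609 scaled counts over replicates 1 to 3. Aqp4 had 375, 660 and 375, while Rlbp1 was highest in replicate 3. A sum over 8 bipolar cell genes was also lowest in retina replicate 1 of each genotype, at 812.4 TPM in control and 571.5 TPM in Abca4Ko. In rod TRAP the sum of the Müller glia genes was 459 to 516 TPM, most of it Car2, whose mean in control was 384 TPM. Rlbp1 came to 1.02% to 1.40% of it in 5 of the 6 rod TRAP libraries and to 3.11% in Abca4Ko rod TRAP replicate 1. In that library Rlbp1 had 15.5 TPM, against 4.7 to 6.8 TPM in the other 5. Glul, the glutamine synthetase of Müller glia, was also highest there, with 82.5 TPM against 60.1 to 65.2 TPM. Apoe was highest there in scaled counts (234) but not in TPM, with 29.6 against 33.1 in control rod TRAP replicate 3. The sum of the Müller glia genes was not highest there either, with 497.8 TPM against 515.5 TPM in control replicate 3. Rgr had its highest rod TRAP value there, 64 scaled counts and 2.8 TPM. Whether RNA from Müller glia had a part in the Rlbp1 value of that library was not tested.

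**Figure D3:**
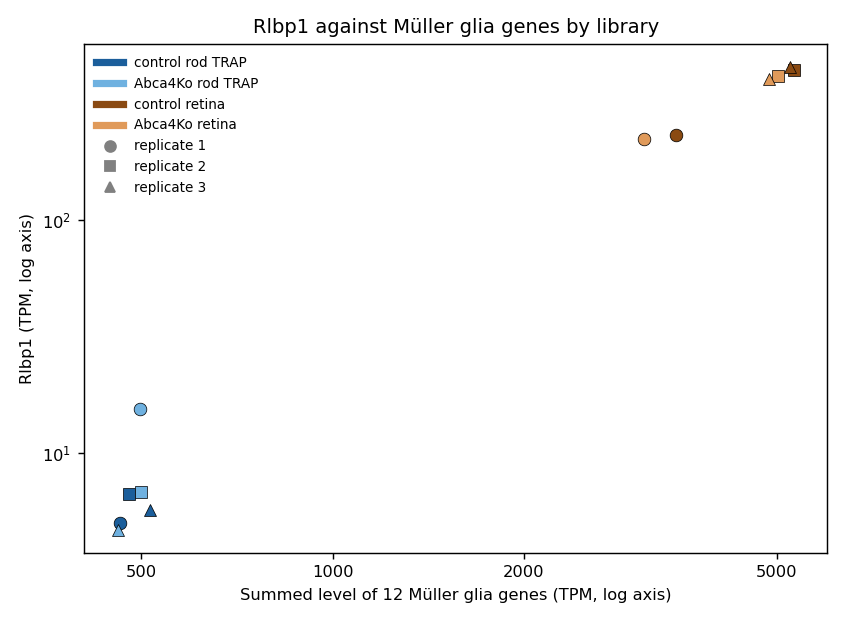
Rlbp1 (TPM, log axis) against the summed TPM of 12 Müller glia marker genes (log axis), 1 point per library, coloured by group and shaped by replicate. The 6 retina libraries lie at 221 to 451 TPM of Rlbp1 with replicate 1 of each genotype lowest, and Abca4Ko rod TRAP replicate 1 lies above the other 5 rod TRAP libraries at 15.5 TPM.

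Rgr, the isomerase of the RPE and Müller glia, had 26, 27 and 31 scaled counts in control rod TRAP and 303, 761 and 489 in control retina, and its log2 fold change was -3.12 (SE 0.25, limma adjusted p = 1.67e-07). In Abca4Ko it had 64, 37 and 27 in rod TRAP and 514, 275 and 204 in retina, and the log2 fold change was -2.14 (SE 0.40, limma adjusted p = 0.000745). No rod TRAP library reached a retina library. In TPM the order of the 3 Abca4Ko rod TRAP libraries differed (2.8, 0.9 and 1.8), so single values of Rgr at this level rest on few reads.

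Rdh5, the 11-cis-retinol dehydrogenase of the RPE, had 7, 18 and 9 scaled counts in control rod TRAP and 110, 163 and 186 in control retina. In Abca4Ko it had 11, 12 and 5 in rod TRAP and 106, 86 and 71 in retina. In both genotypes Rdh5 passed the filter of at least 10 scaled counts in at least 3 libraries only through retina. A gene this low in both fractions would not have been tested. The fractions were separate, and the log2 fold change was -2.48 (SE 0.26, limma adjusted p = 1.95e-06) in control and -2.00 (SE 0.29, limma adjusted p = 0.000130) in Abca4Ko. Exons of Rdh5 overlap those of Bloc1s1 on the same strand in GENCODE M21, so reads could be split between the 2 genes and the level of Rdh5 is uncertain. Bloc1s1 itself ranged from 74 to 112 scaled counts over the rod TRAP libraries, and from 139 to 229 over those of retina. Rpe65, which defines the RPE, ranged from 3 to 18 scaled counts over the rod TRAP libraries and from 24 to 157 over those of retina, and Lrat from 1 to 10 and from 1 to 40.

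Rdh10, the retinol dehydrogenase on the way to retinoic acid, was the member closest to the median of all genes. It had 288, 226 and 285 scaled counts in control rod TRAP and 618, 889 and 678 in control retina, and its log2 fold change was -0.72 (SE 0.16, limma adjusted p = 0.000977). In Abca4Ko it had 239, 338 and 528 in rod TRAP and 591, 838 and 940 in retina. These groups did not overlap in scaled counts but did in TPM (7.0 to 17.0 in rod TRAP, 13.0 to 24.6 in retina), and the log2 fold change of -0.54 (SE 0.24) missed the threshold (limma adjusted p = 0.0766). With the libraries of the same number in a replicate block, a pairing that the labels do not give, it passed (limma adjusted p = 0.00454). Without Abca4Ko rod TRAP replicate 3, the highest of the 3 and one of the libraries with remaining Abca4, it was -0.82 and passed (limma adjusted p = 0.00694). Then 10 of 10 members were called. Without Abca4Ko rod TRAP replicate 1, the lowest of the 3, it shrank to -0.28 and did not pass (limma adjusted p = 0.281). Nor did it pass without Abca4Ko retina replicate 2 (-0.50, limma adjusted p = 0.194) or replicate 3 (-0.47, limma adjusted p = 0.201).

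The make-up of the dehydrogenase messages was compared next, as the share of each gene in the summed TPM of the 7 dehydrogenases within a library, which does not depend on the scaling between libraries. The sum itself was 1707 to 1801 TPM in rod TRAP and 965 to 1138 TPM in retina. Rdh12 made up 62.9% ± 1.49 of it in rod TRAP and 57.5% ± 2.81 in retina (SD, n = 6 each), with every rod TRAP library (61.9% to 65.9%) above every retina library (53.8% to 60.2%). Rdh12 and Rdh8 together, the all-trans-retinal reductases of photoreceptors, made up 75.9% to 78.9% in rod TRAP and 67.7% to 73.1% in retina. Dhrs3 took a smaller share in rod TRAP, 15.9% ± 1.48 against 19.0% ± 1.53 (SD, n = 6 each), although its level was higher there. Rdh10 took 0.572% against 1.83% and Rdh5 0.175% against 1.59%, with no overlap for either.

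In an exact permutation test over libraries, two-sided and adjusted over the 7 genes, 4 of the 7 shares differed between the fractions. For Rdh12, Rdh10 and Rdh5 the exact permutation p was 0.002165, the smallest that 6 against 6 libraries can give (adjusted p = 0.005051), and for Dhrs3 it was 0.006494 (adjusted p = 0.01136). The shares of Rdh8 (13.9% in rod TRAP, 13.2% in retina), Rdh11 (4.55% and 4.50%) and Rdh14 (2.04% and 2.39%) did not pass, with exact permutation p-values of 0.3203, 0.881 and 0.08225. When signs were flipped within the pairs of the replicate block, the smallest exact p was 0.03125, the smallest that 6 pairs can give. The smallest adjusted p was 0.05469, so that 0 of 7 shares passed in that paired test. With shares already at its floor, that test cannot tell whether the result fails under pairing. Shares within a library sum to a fixed total, so that they are not independent of each other.

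**Figure D4:**
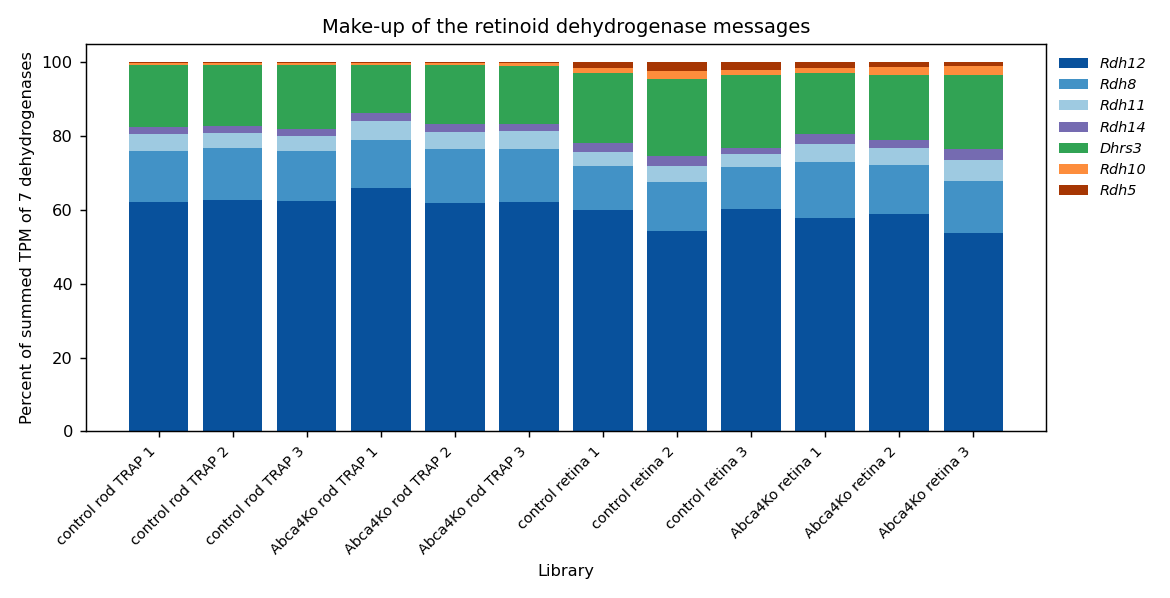
Share of each of 7 dehydrogenases (percent of their summed TPM, bars from 0) in each of the 12 libraries. Rdh12 is the largest piece in every library, from 53.8% to 65.9%, and Rdh10 and Rdh5 at the top of the bars are thinner in the 6 rod TRAP libraries than in the 6 retina libraries.

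Other genes of retinoid handling were read from a list of 39, of which 31 could be tested between the fractions in control. Of these, 5 were higher and 18 lower in rod TRAP, and 8 did not pass, with a median log2 fold change of -0.61 against -0.03 for all genes. Besides Abca4 itself (1.26, SE 0.11), the largest rises were Rarb, a retinoic acid receptor (0.70, SE 0.19), and Dhrs7, a short-chain dehydrogenase (0.67, SE 0.13). Large falls were those of Aldh1a1, which makes retinoic acid (-4.70, SE 0.23), and of the cellular retinoic acid binding protein Crabp1 (-3.94, SE 0.26). Rpe65 fell too (-1.99, SE 0.27), while Lrat had -0.50 (SE 0.34, limma adjusted p = 0.196).

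In Abca4Ko, 30 of the 39 could be tested, with 4 higher, 15 lower and a median of -0.70 against 0.00437 for all genes. Large falls there were those of Aldh1a1 (-4.35, SE 0.25) and of Rrh, the opsin peropsin of the RPE (-3.89, SE 0.24). The largest rises were Dhrs7 (0.74, SE 0.18), the scavenger receptor gene Scarb1 (0.50, SE 0.16) and Rdh13 (0.46, SE 0.14). None of these rises reached the size seen for Rbp3, Rdh8, Rdh11 or Rdh12. Abca4 had 0.93 (SE 2.43) in these libraries, and Rpe65 had -1.36 (SE 0.54, limma adjusted p = 0.0478).

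The genes whose level across the 12 libraries was most like that of Rdh12 were Prph2, Dnajc19 and Rom1, among 10961 genes compared. Prph2 and Rom1 encode the partner proteins of the disc rim, and Dnajc19 a mitochondrial protein. Likeness was the root mean square distance of the centred log2(CPM + 0.5) values, which was 0.0642 for Prph2, 0.0792 for Dnajc19 and 0.0807 for Rom1. For Rlbp1 the closest were Crym (0.278), Vat1l (0.304) and S100a16 (0.308), so that its closest genes were farther from it than those of Rdh12. The 12 libraries fall into 2 fractions, between which both genes differed.

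The second comparison asked whether loss of Abca4 went with a change in the genes that act next to it in the visual cycle. In rod TRAP, 0 of the 10 genes differed between Abca4Ko and control by limma at an adjusted p under 0.05, and 1, Rdh11, had an unadjusted p under 0.05. Of all 13104 genes tested, 1.13% were called. Log2 fold changes of Abca4Ko over control ran from -0.13 for Rdh5 to 0.49 for Rlbp1, with a median of 0.14 against 0.00155 for all genes. The intervals were narrow for the members that were higher in rod TRAP than in retina. Rdh8 had 0.14 (95% interval -0.03 to 0.30), Rdh12 0.12 (-0.10 to 0.34), Rdh14 0.15 (-0.08 to 0.38), Dhrs3 -0.07 (-0.24 to 0.10) and Rbp3 -0.10 (-0.33 to 0.13).

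Rdh11 had 92.9, 83.5 and 85.3 TPM in Abca4Ko rod TRAP and 76.1, 71.1 and 70.4 TPM in control rod TRAP. All 3 knockout libraries were above all 3 control libraries, and the mean was 20.3% higher in TPM. Its log2 fold change was 0.28 (SE 0.11, 95% interval 0.04 to 0.51, limma adjusted p = 0.377), so it did not pass over all genes tested, and it was 0.15 without Abca4Ko rod TRAP replicate 1. Rbp3 and Dhrs3 also did not overlap in TPM, with differences in the mean of -11.6% and -9.74% in Abca4Ko. This makes 3 of the 10 members, where 14.3% of 11701 genes did not overlap between these groups. In scaled counts both did overlap. Rbp3 had 242700 to 276014 in Abca4Ko and 267324 to 294810 in control, and Dhrs3 had 3457 to 4081 and 3902 to 4144. Rbp3 passed only without Abca4Ko rod TRAP replicate 1, where its log2 fold change was -0.20 (limma adjusted p = 0.0399). Calls were then more common among all genes too, 594 of 12936, against 148 of 13104 with all libraries.

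The remaining members had wide intervals in rod TRAP. Rdh10 had 239, 338 and 528 scaled counts in Abca4Ko and 288, 226 and 285 in control, with overlapping groups and a log2 fold change of 0.40 (95% interval -0.09 to 0.89). It was 0.13 without Abca4Ko replicate 3. Rlbp1 had 0.49 (95% interval -0.67 to 1.64), which became -0.08 without Abca4Ko replicate 1 and 0.88 without replicate 3. Rgr had 0.43 (-0.16 to 1.03) and Rdh5 -0.13 (-0.75 to 0.49), the latter at 5 to 18 scaled counts. With these intervals, differences of Rlbp1, Rgr and Rdh5 between the genotypes in rod TRAP were not detectable unless large.

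**Figure D5:**
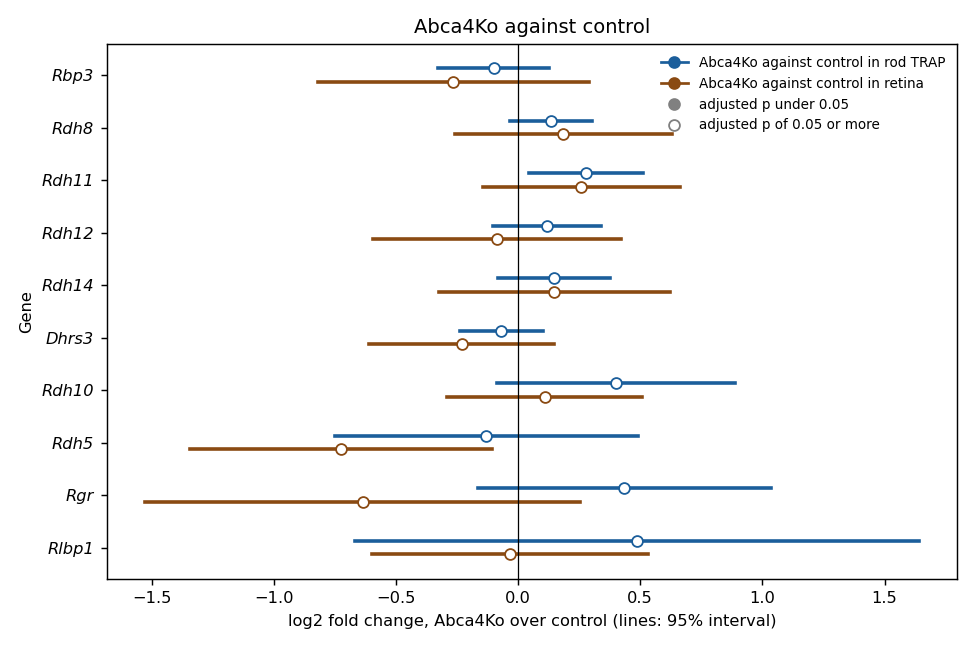
Log2 fold change of Abca4Ko over control for the 10 genes in rod TRAP (blue) and retina (brown), with 95% intervals as lines. All points are open, since no limma adjusted p was under 0.05; the interval lies above 0 for Rdh11 in rod TRAP and below 0 for Rdh5 in retina.

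In retina, 0 of the 10 genes differed between the genotypes by limma at an adjusted p under 0.05 and 1, Rdh5, had an unadjusted p under 0.05, where 0.106% of 16964 genes were called. Log2 fold changes ran from -0.73 for Rdh5 to 0.26 for Rdh11, with a median of -0.06 against -0.02 for all genes. Rdh11 had 50.7, 47.7 and 54.2 TPM in Abca4Ko retina and 40.7, 45.9 and 41.7 TPM in control retina, again with no overlap and a mean 18.9% higher, but a limma adjusted p of 0.528 (log2 fold change 0.26, 95% interval -0.14 to 0.66). Without Abca4Ko retina replicate 1 the log2 fold change of Rdh11 was 0.10. Rbp3 (difference in mean TPM -18.3%) and Dhrs3 (-13.6%) did not overlap in TPM in retina either. In scaled counts Rbp3 did overlap in retina (133548 to 174425 in Abca4Ko, 167352 to 199759 in control), while Rdh11 and Dhrs3 did not. The genes without overlap in TPM were the same 3 as in rod TRAP, in the same directions. They make 3 of the 10 members, against 11.7% of 15013 genes. But retina and rod TRAP libraries of the same number deviated together and are not independent of each other. The log2 fold changes of Rbp3 (-0.26, SE 0.25) and Dhrs3 (-0.23, SE 0.17) did not pass in retina.

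Rdh5 and Rgr had the largest differences between the genotypes in retina. Rdh5 had 106, 86 and 71 scaled counts in Abca4Ko and 110, 163 and 186 in control, with a log2 fold change of -0.73 (95% interval -1.34 to -0.11) and a limma adjusted p of 0.400. Its groups did not overlap in scaled counts but did in TPM, with 9.2 to 16.0 TPM in Abca4Ko and 15.3 to 23.5 TPM in control. Rgr had 514, 275 and 204 in Abca4Ko and 303, 761 and 489 in control. Its groups overlapped, and its log2 fold change was -0.64 (95% interval -1.53 to 0.25, limma adjusted p = 0.493), or -0.29 without Abca4Ko retina replicate 3. The 12 RPE genes had a median log2 fold change of -0.59 in the same comparison with 0 of 12 called, and their summed level was 98.1, 473.3 and 318.4 TPM in Abca4Ko and 315.0, 375.6 and 755.9 TPM in control. Rpe65 had 157, 52 and 24 scaled counts in Abca4Ko and 46, 116 and 55 in control (log2 fold change -0.12, SE 0.56). The part of the RPE in the Rdh5 and Rgr values was not tested. Rlbp1 had -0.03 (95% interval -0.60 to 0.53) between the genotypes in retina, Rdh10 0.11 (-0.29 to 0.51), Rdh8 0.18 (-0.26 to 0.63), Rdh14 0.15 (-0.32 to 0.62) and Rdh12 -0.09 (-0.59 to 0.42).

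Shares of the 7 dehydrogenases were also compared between the genotypes, where 3 against 3 libraries cannot go below an exact permutation p of 0.1. Rdh11 took 4.92% of the sum in Abca4Ko and 4.19% in control rod TRAP, and 5.02% and 3.98% in retina, with no overlap in either fraction and p = 0.1 in both exact tests. Dhrs3 took 14.9% in Abca4Ko and 16.9% in control rod TRAP (exact permutation p = 0.1), and 18.1% and 19.8% in retina (exact permutation p = 0.3). None of the 14 shares compared passed after adjustment. Of the 39 other retinoid genes, 0 of 21 tested were called by limma between the genotypes in rod TRAP and 0 of 32 in retina, with 1 and 4 at an unadjusted p under 0.05, and Abca4, at -5.79 (SE 1.81) and -5.60 (SE 1.59), did not pass either with the libraries of replicate 3 in the fit.

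Whether the genotype difference itself differed between rod TRAP and retina was tested as an interaction over all 12 libraries. By limma 0 of the 10 genes passed, with 0 at an unadjusted p under 0.05, where 0.00579% of 17273 genes were called. The largest value was that of Rgr, 1.06 (95% interval -0.08 to 2.20, limma adjusted p = 0.471), followed by Rdh5 with 0.56 (-0.32 to 1.43) and Rlbp1 with 0.50 (-0.70 to 1.69). Without both libraries of Abca4Ko replicate 3 the interaction of Rgr was 0.95. The photoreceptor members lay between -0.07 for Rdh8 and 0.18 for Rdh12. Of the 39 other retinoid genes 0 of 32 tested passed, with 3 at an unadjusted p under 0.05 by limma.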

How the data were processed

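Messenger RNA of retinal lysate (retina, 5 ng) and of rod ribosomes (rod TRAP, 10 ng) from 2-month-old mice was made into cDNA with a low-input kit. The labels gave each of the 12 libraries its group and replicate number. The submitters' processing notes name CASAVA 1.8.2, HISAT2, DESeq2, edgeR and the build GRCm39, without their roles. The counting step and annotation are not given in the sources used here. The authors deposited 2 tables. The first holds scaled counts, a score, since the authors multiplied the counts of a library by 1 factor to a common total per fraction and rounded them. The second holds TPM, made by the authors, to 1 decimal. Because the first table does not hold raw counts, limma took the place of a count test.

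Scaling between libraries used trimmed means of M values (trims 0.3 and 0.05), and values were taken as log2(CPM + 0.5). Genes with at least 10 scaled counts in at least 3 libraries were tested with limma 3.58.1 (trend, robust; R 4.3.3), two-sided, with Benjamini-Hochberg adjustment over all genes tested and a threshold of 0.05. All 10 members passed this filter in every comparison. Rdh5 passed it between the fractions only through retina, and between the genotypes in rod TRAP with 3 of 6 libraries. Each comparison used its own 6 libraries, and the interaction all 12. The test was also run on simulated counts with a fixed spread. These were not rescaled and held no outlying library, so the run does not show how the test performs on these data. Shares of summed TPM were compared by exact permutation tests over libraries. Rod TRAP and retina libraries with the same number deviated together within each genotype (r = 0.435, 0.304 and 0.232 in control, 0.558, 0.272 and 0.509 in Abca4Ko). Libraries with different numbers gave r from -0.605 to 0.362. Abca4Ko rod TRAP replicate 2 was closer to Abca4Ko retina replicate 3 (0.362) than to its own number (0.272). The labels do not give a pairing, so it is likely but not settled, and a fit with the replicate as a block was an alternative. Others were the scaling, filter, pseudocount, TPM, 1 fit over all libraries and leaving out each library. Promoters came from RefSeq (GRCm38.p6) and exon overlaps from GENCODE M21, by symbol. Python 3.11.15, numpy 2.4.6, scipy 1.17.1, pandas 2.3.3 and matplotlib 3.10.9 were used.

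The members, marker lists and the list of other retinoid genes were chosen with earlier results of these data known. Named genes are all members, Abca4, Rpe65 and Lrat, the 3 called genes of the list with the largest rise and fall in a comparison, and the 3 genes most like Rdh12 and Rlbp1. A gene that this rule selects is not reported here. Genes of the marker lists and Bloc1s1 were named after their values were seen.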

Additional observations from a re-analysis of the deposited data

How the results depend on the processing

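With few reads, the levels of Rdh5 and Rgr in rod TRAP carry the most counting error, and 3 libraries a group limit every genotype comparison. The calls of the fraction comparisons kept their direction under every alternative run, and 10 of 10 (control) and 9 of 10 (Abca4Ko) members called became 8 and 8 with the authors' scaling only. In Abca4Ko, Rdh10 passed with that scaling (log2 fold change -1.07), in 1 fit of all 12 libraries (-0.54), with the replicate block and without Abca4Ko rod TRAP replicate 3. In the other 11 of 15 alternatives Rdh10 did not pass, and its smallest fall was -0.28, without Abca4Ko rod TRAP replicate 1. The replicate block changed no other call of a member. Between the genotypes the numbers do not pair the libraries (r from -0.178 to 0.0188 in rod TRAP, -0.523 to -0.0604 in retina), and the block left 0 members called in each fraction. The number of members called between the genotypes in rod TRAP ran from 0 to 1 when single libraries were left out. The 1 was Rbp3 without Abca4Ko rod TRAP replicate 1, where 594 of all 12936 genes tested were called. The count of dehydrogenase shares that differed between the fractions, 4 of 7, was 0 with control libraries only and 0 with Abca4Ko libraries only. Both are designs of 3 against 3 that cannot go below p = 0.1 in an exact test. The count was also 0 with sign flips within pairs (smallest adjusted p 0.05469, exact test). There the smallest exact p, 0.03125, was the floor for 6 pairs.

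Several log2 fold changes that were not called changed sign when 1 library was left out. Between the genotypes in rod TRAP, Rdh5 ran from -0.29 to 0.0669 and Rlbp1 from -0.0846 to 0.88. In retina, Rdh8 ran from -0.0170 to 0.33, Rdh12 from -0.27 to 0.0913, Rdh14 from -0.0191 to 0.26 and Rlbp1 from -0.30 to 0.19. For the interaction, Rdh8 ran from -0.23 to 0.10, Rdh12 from -0.0132 to 0.34, Rdh11 from -0.12 to 0.13, Rdh14 from -0.13 to 0.12, Rdh10 from -0.0155 to 0.52, Rbp3 from -0.0310 to 0.29 and Rlbp1 from -0.0490 to 0.89. The interaction of Rdh11, -0.00810, was 0.0111 with the authors' scaling only and 0.0173 on log2(TPM + 1), and that of Rbp3 was -0.0130 without both libraries of Abca4Ko replicate 3. The cause was not tested.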
